A study of Mus musculus with 4 samples.

Results

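The report covers the 7 genes of the Il10 gene cluster and the IL-10 receptor: Il10, Il19, Il20, Il24 and Mapkapk2, which lie side by side on chromosome 1, and the receptor genes Il10ra and Il10rb on chromosomes 9 and 16. They are given by name, from 21888 genes with a position, and were picked with earlier results of these data known. Chromatin accessibility was read over each gene span with 5 kb on either side, and in 432 tiles of 500 bp from Il24 to Mapkapk2. Every value was taken for each of the 17 cell type labels of the study in 2 libraries.

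IL-10 is a cytokine that restrains inflammation, and Treg cells that make it are a known safeguard of the gut lining. Its receptor joins IL-10RA, the chain that is particular to IL-10, with IL-10RB, a chain also used by IL-22 and the lambda interferons, and the pair signals through JAK1, TYK2 and STAT3. Il19, Il20 and Il24 encode cytokines of the same family that act mainly on epithelial cells, and Mapkapk2 encodes a kinase of the p38 pathway.

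The study placed tumor organoids, grown from mouse intestinal stem cells whose engineered changes include the loss of Apc and Trp53, in the cecum wall of mice, and sorted T cells 4 weeks later from the tumors and from adjacent cecum without tumor. A multiome assay read RNA and open chromatin (ATAC) in the same nuclei, and the fragments of the cecum ATAC library and the tumor ATAC library were used here. The host strain and the number of animals behind each library are not given in the sources used here for this assay. The organoid line came from female mice, and the tumors grow from this line. The authors named the labels from RNA clusters, and the Treg labels are named for IL-10, so a difference of these 2 labels at Il10 is not independent of their naming.

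Labels were available for 7155 cecum and 8466 tumor cells, and their nuclei gave 43980981 and 62118519 fragments. Of the labelled barcodes, 84 occurred in both libraries. All levels below are fragments with an end in a window per 1000000 fragments of the label (FPM), with exact 95% Poisson intervals, and ratios have exact conditional 95% intervals. They cover counting error only, since each tissue had 1 library, so no test was made and tissue and library cannot be told apart. PD1+ CD4 cells numbered 14 in the cecum library and were ranked only in the tumor. Many marker windows were highest in labels of their name: Foxp3 in the Treg labels in both libraries, Gata3 in Th2, Trdc in Cytotoxic gdT and Ccr7 in CCR7+ CD4 cells, while others were not. Il2ra (Treg) was led by Rorgt gdT cells in both libraries at 226 and 231 FPM, Bcl6 (Tfh) by Innate-like T#1, Tbx21 and Ifng (Th1) by CD8 labels, Tox (PD1+) by IL-10- Treg, Pdcd1 by Tfh-like and Rorgt gdT cells, and of the innate-like markers Fcer1g by CD8aa and Zbtb16 by Rorgt gdT cells. Of genes of other cell types, Ms4a1 (B cells) lay at 3.89 FPM or below, Lyz2 (myeloid) at 4.69 and Krt20 (epithelial) at 4.92 in every ranked label and at 0 in the lowest. Krt8 (epithelial) was also at 0 in the lowest label of both libraries, and Csf1r (myeloid) in that of the tumor. Some other genes of these lists had fragments in every ranked label, from 80.3 to 112 FPM at Cd79a, 81.1 to 136 at Cd68 and 34.7 to 139 at Cdh1. The summed lists of 4 B cell, 4 myeloid and 5 epithelial genes ran from 101 to 196, 120 to 199.9 and 65.4 to 183 FPM. In IL-10+ against IL-10- Treg cells the epithelial sum was 87.2 against 117 FPM in the cecum library and 87.6 against 132 in the tumor, and its part in the values below was not tested.

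The promoters of Mapkapk2 and Il19 are shown because their sequence composition and their accessibility differ widely. Sequences are from RefSeq (GRCm38.p6), 250 bases before to 50 after the start listed with them, 5′ to 3′ on the gene's strand. Of the 7 genes, 3 had a listed sequence. The Il19 stretch lies inside the gene span used for its window (130932656 to 130945457), not at the upper end of that span. Capitals mark matches to 7 motifs searched on both strands: TGANTCA for AP-1, TTCNNNGAA for STAT factors, AGGTCA for a nuclear receptor half-site, TGCTGA for a MAF half-site, AGATAA for GATA factors, TGGAAA for NFAT, and CACGTG for an E-box.
Mapkapk2, chr1:131097794-131098093, minus strand: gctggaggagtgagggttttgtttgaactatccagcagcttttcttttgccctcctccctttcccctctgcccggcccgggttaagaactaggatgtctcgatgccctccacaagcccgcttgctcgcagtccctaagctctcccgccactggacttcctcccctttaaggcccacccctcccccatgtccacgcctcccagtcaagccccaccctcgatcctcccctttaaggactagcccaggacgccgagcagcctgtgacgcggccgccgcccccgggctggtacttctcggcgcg
Il19, chr1:130940066-130940365, minus strand: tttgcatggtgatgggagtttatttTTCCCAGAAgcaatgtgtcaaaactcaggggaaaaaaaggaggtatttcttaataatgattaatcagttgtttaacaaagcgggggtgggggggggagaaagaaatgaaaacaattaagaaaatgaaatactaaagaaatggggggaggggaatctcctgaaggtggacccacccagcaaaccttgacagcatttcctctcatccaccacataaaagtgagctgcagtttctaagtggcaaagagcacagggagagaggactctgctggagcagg
The Mapkapk2 promoter holds 18 CpG and 63.3% G or C, and the Il19 promoter 1 CpG and 44.0%. The median of all promoters in the table was 7 CpG. No motif was found in the former. The latter holds 1 STAT match, as do 8.30% of 32851 promoters. Over the Mapkapk2 promoter 914 fragments were counted in the cecum library and 1302 in the tumor, with labels between 15.1 and 28.1 FPM and between 13.7 and 28.3 FPM. Over the Il19 promoter 1 fragment was counted in the cecum library and 4 in the tumor over all labels. The promoter of Il20 (chr1:130911247-130911546), with 4 CpG and 1 match to AGGTCA (16.3% of promoters), had 1 fragment in each library. A promoter open in all labels and promoters with almost no fragments thus stood in one cluster.

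Per length, the genes of the cluster fell into 4 levels. Il10 had 4.11 FPM per kb over all labelled cells of the cecum and 3.66 in the tumor, above 89.3% and 87.7% of all genes. Mapkapk2 followed with 2.14 and 2.24, and Il24 with 0.317 and 0.370. Il19 and Il20 lay between 0.0638 and 0.0763, where the median gene had 0.666 and 0.694. The receptors stood above that median, Il10ra at 1.72 and 1.76 and Il10rb at 1.54 and 1.71 FPM per kb.

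Over Il10 (chromosome 1, 131019845 to 131024970), IL-10+ Treg cells were highest in both libraries, at 153 FPM (143 to 164, 876 fragments) in the cecum library and 146 FPM (132 to 161, 397 fragments) in the tumor. Every other ranked label lay below them with an interval of the ratio that excluded 0, 15 of 15 in the cecum library and 16 of 16 in the tumor. Behind them CD8, gdT, helper and IL-10- Treg labels were mixed. In the cecum the order ran from IL-10- Treg (79.3 FPM) over CD8aa (71.5), PD1+ CD8 (67.5), Mucosal Th1 (63.5), Cytotoxic gdT (58.2), Cytotoxic CD8 (54.9), newly activated CD4 (49.2), Th17 (48.2) and Tfh-like (46.0) to Rorgt gdT cells (39.8). In the tumor it ran from PD1+ CD8 (76.3) over Tfh-like (62.4), Cytotoxic gdT (62.0), Mucosal Th1 (61.0), Cytotoxic CD8 (58.6), newly activated CD4 (57.0), IL-10- Treg (55.1), CD8aa (52.9), Rorgt gdT (50.8) and Th17 (47.4) to PD1+ CD4 cells (45.3). Of the neighbouring pairs in the order, 2 of 15 in the cecum library and 2 of 16 in the tumor differed beyond counting error, but labels further apart did too. The interval of the ratio to IL-10- Treg cells excluded 0 for 12 labels below them in the cecum and for 5 in the tumor, where PD1+ CD8 cells lay above them. The place of IL-10- Treg cells moved with the window, since 7 labels lay above them in the tumor but 2 over the gene span or with 20 kb on each side.

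The lower end of the order was held by the CCR7+, Th2 and innate-like labels. CCR7+ CD4 cells, labelled for a receptor that guides cells to lymph nodes, had 3.35 FPM (0.914 to 8.59, 4 fragments) in the cecum library and 5.48 FPM (1.49 to 14.0, 4 fragments) in the tumor, the lowest of the ranked labels in both. CCR7+ CD8 cells had 10.2 and 38.3 FPM, Innate-like T#2 17.0 and 37.8, Th2 17.6 and 36.4, and Innate-like T#1 29.1 and 32.9. Barcodes with under 100 fragments and no label, the low-count barcodes below, had 33.1 FPM (cecum) and 31.8 FPM (tumor). In the cecum 5 labels lay below that level and in the tumor 1, so it is given as a comparison and is no floor contained in the labels. Over the 16 labels ranked in both libraries the Il10 levels had Pearson r = 0.90 of log2(FPM + 1) and Spearman rho = 0.77. This describes labels that share their library and their RNA-based naming. CCR7+ CD4 cells, with 4 fragments in each library, enter as the lowest point, and their weight in r was not tested.

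**Figure D1:**
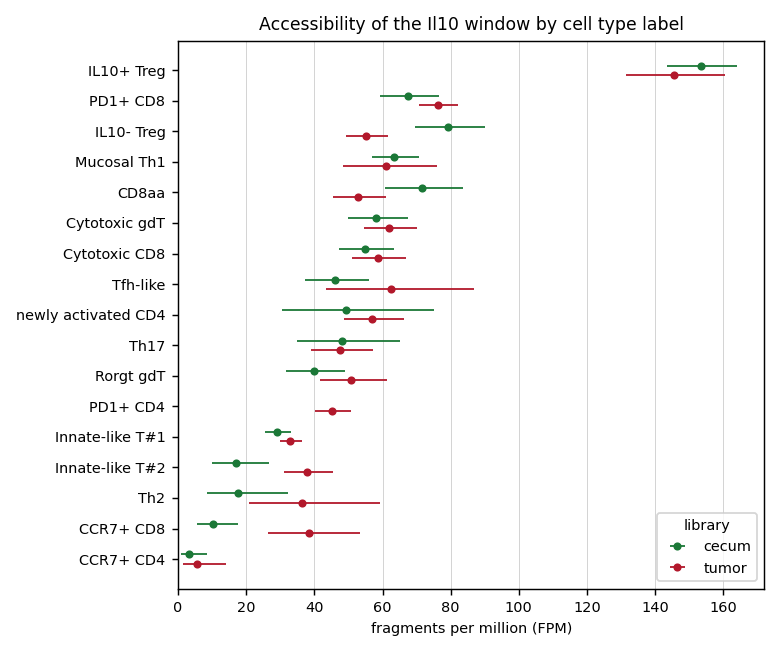
FPM (x axis) in the Il10 window of each label (y axis) in the cecum (green) and tumor (red) library; points are label totals and bars exact 95% Poisson intervals. IL-10+ Treg cells stand apart at 153 and 146 FPM, and CCR7+ CD4 cells are lowest at 3.35 and 5.48 FPM.

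The 216 kb from Il24 to Mapkapk2 were largely closed. Of the 432 tiles, 44 were open, with at least 5 FPM and 10 fragments in 1 label or more of both libraries, and adjacent open tiles were joined into 20 elements. The first lay at chr1:130987501-130988000, so the 105 kb from the Il24 start onward, with Il24, Il20 and Il19, held none. The elements covered the interval from 32.1 kb before the Il10 start to 77.2 kb after it, measured at their middle. The start is here the lower coordinate of the gene span, since the gene table gives no strand. IL-10+ Treg cells were highest at 9 elements in both libraries and a label without Treg in its name was highest at 9 in both. No genome-wide share was taken for these counts, so whether they are unusual is not known.

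At a group of 3 elements IL-10+ Treg cells stood at nearly 2-fold or more over each other ranked label. The element over the Il10 start (chr1:131019001-131020500) was in IL-10+ Treg cells at 29.2 FPM (cecum) and 30.8 FPM (tumor), from 167 and 84 fragments. IL-10- Treg cells had 8.0 and 2.93 FPM there, and the median label 1.71 and 1.19. The element 27.6 kb before the start (chr1:130992001-130992500) had 23.6 and 25.3 FPM in IL-10+ Treg cells, against 8.33 and 2.76 in IL-10- Treg, 8.04 and 8.12 in Th17 and 7.97 and 7.13 in Tfh-like cells. No fragment was counted there in 504 Cytotoxic CD8, 499 PD1+ CD8 and 407 CD8aa cells of the cecum. The limit used for no count, 3 counts rather than the exact interval, was 0.885, 0.833 and 1.39 FPM. In the tumor the same labels had 1.07, 0.656 and 0.578 FPM. The median label had 0.0620 FPM in the cecum library and 2.35 in the tumor, beside the 2.76 of tumor IL-10- Treg cells and the 1.81 (cecum) and 2.44 FPM (tumor) of the low-count barcodes. The element 18.9 kb after the start (chr1:131038001-131039500) had 55.3 and 45.8 FPM, and the next labels reached 28.3 FPM (IL-10- Treg, cecum) and 16.1 FPM (Tfh-like, tumor). No other ranked label held 50% of the IL-10+ Treg level at these 3 elements, except IL-10- Treg cells at the last in the cecum, with 51.2%.

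Other elements led by IL-10+ Treg cells were shared, each with a different set of labels. At 23.3 kb before the start (chr1:130996001-130997000) IL-10+ Treg cells had 49.6 FPM in the cecum library and 44.7 in the tumor, and Th17 cells, which make IL-17, had 34.4 and 31.6 FPM, 69.5% and 70.7% of that level. Th2 and Tfh-like cells held 67.4% and 53.9% of it in cecum cells, against 35.7% and 43.9% in the tumor. At 20.1 kb before the start (chr1:130998501-131001000) Th2 cells, which make IL-4 and IL-5, held 68.3% and 75.9% of the IL-10+ Treg levels of 41.2 and 48.0 FPM, from 16 fragments in each library. At 16.3 kb before it (chr1:131003001-131004000) PD1+ CD8 cells held 58.6% and 59.2%, Mucosal Th1 cells 51.9% and 50.4%, and IL-10- Treg cells 62.6% and 51.0% of 25.6 and 26 FPM. Over these 3 neighbouring elements the labels with at least 50% in both libraries were thus Th17 at the first and Th2 at the second. At the last they were IL-10- Treg, PD1+ CD8 and Mucosal Th1. The 50% cut takes no account of counting error, which is wide for the 58 tumor Th2 cells. Mucosal Th1 cells at 50.4% lie close to the cut.

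The element 6.16 kb after the start, just behind the gene (chr1:131025001-131027000), was the one with the most fragments in IL-10+ Treg cells, at 74.4 FPM in the cecum library and 61.6 in the tumor. Element levels are not divided by length, and this element spans 2000 bp, against 500 bp for the element 27.6 kb before the start. The labels with at least 50% of that level in both libraries were CD8 and gdT labels: CD8aa cells held 63.6% and 57.3%, Cytotoxic gdT cells 52.7% and 73.2%, and Cytotoxic CD8 cells 50.4% and 61.8%. PD1+ CD8 cells (44.0% and 60.5%) reached it only in the tumor, as did Mucosal Th1 cells at 30.9 FPM (50.1%) after 29.8 FPM in the cecum library, and Rorgt gdT cells held 29.8% and 45.1%. IL-10- Treg cells, at 23.0 and 18.3 FPM, held 30.9% and 29.6%, less than the 3 labels above 50% in both libraries. The low-count barcodes had 17.1 and 15.1 FPM at this element. CCR7+ CD4 cells had 2.51 and 1.37 FPM.

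Beside these, the element at the Mapkapk2 end (chr1:131096001-131098000) and 1 before the Il10 start were shared by most labels. At the Mapkapk2 end 15 of 16 labels held at least 50% of the highest level in both libraries. At 26.1 kb before the start (chr1:130993001-130994500) 11 of 16 labels held at least 50% of the highest level in both libraries, from Tfh-like (61.4 FPM) and IL-10+ Treg (59.7) in the cecum to Th2 (66.1) and Mucosal Th1 (64.1) in the tumor. The labels that stayed low there were CCR7+ CD4 (5.03 and 4.11 FPM), CCR7+ CD8 (1.57 and 13.5), Innate-like T#1 (5.21 and 5.36) and Innate-like T#2 cells (4.71 and 5.31). Rorgt gdT cells, at 37.5 and 28.7 FPM, were above 50% in the cecum only. It adjoins the element at 27.6 kb, where IL-10+ Treg cells alone stood above 50%, with 500 bp between them.

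Several weaker elements were led by labels without Treg in their name. The element 13.6 kb before the start (chr1:131006001-131006500) peaked in Tfh-like cells, with 11.3 FPM (24 fragments) in the cecum library and 10.7 FPM (6 fragments) in the tumor. Newly activated CD4 cells followed at 9.37 and 7.01 FPM, while IL-10+ Treg cells had 1.58 and 1.47 FPM. In the 77 newly activated CD4 cells of the cecum 3 counts are 7.03 FPM, so their 9.37 FPM rests on few fragments. The element 29.7 kb after the start (chr1:131049001-131050000) was led by CD8aa cells in the cecum (16.2 FPM) and Cytotoxic gdT cells in the tumor (15.7). The one 11.6 kb before the start (chr1:131008001-131008500) was led by the same labels in the same libraries, at 5.11 and 5.01 FPM, and is named here after its values were seen. Inside the gene, the element 3.16 kb after the start (chr1:131022501-131023500) was led by PD1+ CD8 cells at 15.3 and 19.9 FPM, with IL-10+ Treg cells at 11.9 and 17.2. At chr1:131060501-131061000, within Mapkapk2, Th17 cells led in the cecum (6.89 FPM, 6 fragments) and Th2 cells in the tumor (22.8 FPM, 10 fragments).

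**Figure D2:**
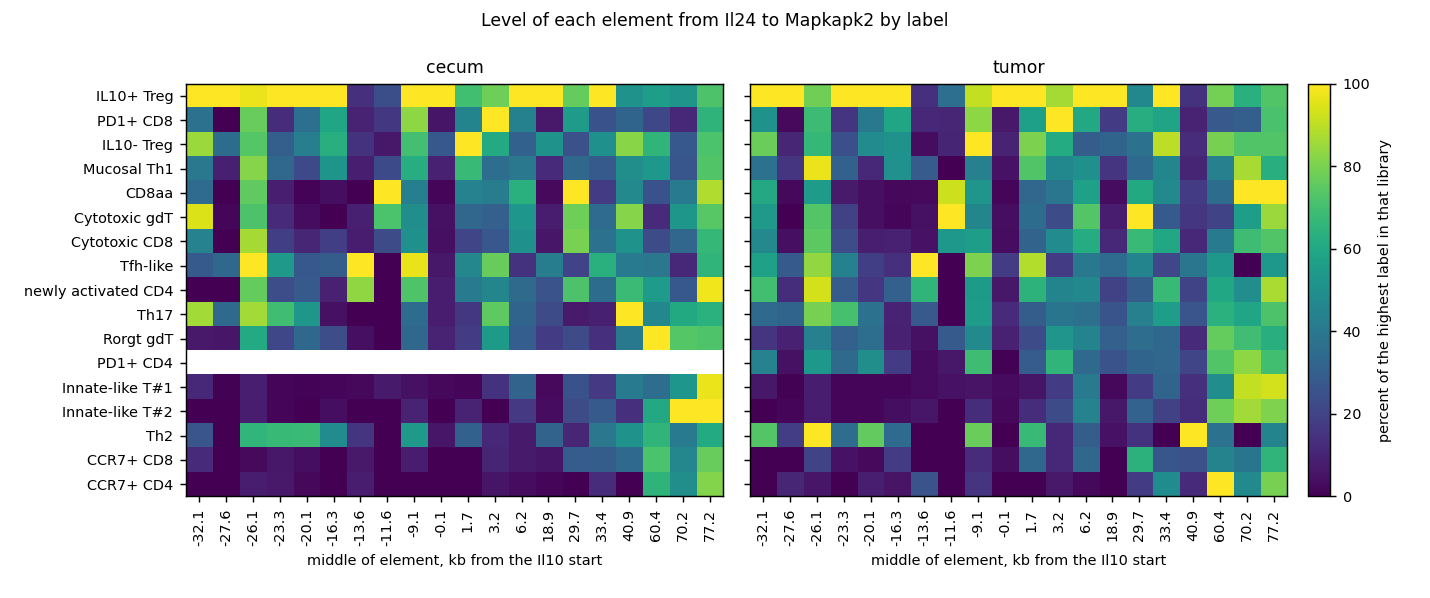
Level of each of the 20 elements (x axis, distance of its middle from the Il10 start in kb) in each label (y axis), as percent of the highest label of that library (colour); the white row is PD1+ CD4 in the cecum, with 14 cells. At 0.1 and 27.6 kb before and 18.9 kb after the start the top row is well above the others, and the last element, at the Mapkapk2 end, is shared by 15 of 16 labels.

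How far the labels shared the IL-10+ Treg tiles was set beside the rest of the genome. Of 45 tiles from Il24 to Mapkapk2 that were open in cecum IL-10+ Treg cells, IL-10- Treg cells held at least 50% of the level at 51.1%, against 92.8% of 46595 open tiles of the whole genome. In the tumor the values were 51.2% of 43 tiles against 93.1%. CCR7+ CD4 cells held 15.6% and 16.3% of the locus tiles, against 77.5% and 73.7% genome-wide, and Innate-like T#1 cells 15.6% and 20.9% against 84.4% and 82.4%. Of labels without Treg in their name, PD1+ CD8 cells held most in the cecum, 44.4% (background 85.8%), and Th17 cells in the tumor, 48.8% (background 89%), after 40% of the cecum tiles (background 86.4%). Over all 15 other labels the locus shares ran from 15.6% to 51.1% and the genome shares from 77.2% to 92.8%, and over all 16 of the tumor from 16.3% to 51.2% and from 73.7% to 93.1%. The tiles were chosen as open in IL-10+ Treg cells, the label named for the product of this locus, so lower shares here are in part set by that choice. Among tiles at least 2-fold higher in IL-10+ than in IL-10- Treg cells the background was lower. Of 22 such locus tiles in the cecum PD1+ CD8 cells held 31.8% (background 48.1%), Th17 cells 18.2% (65.2%) and CCR7+ CD4 cells 0 tiles (35.6%). Of 21 in the tumor the same labels held 14.3% (background 38%), 23.8% (55.7%) and 0 tiles (30.3%). Neighbouring tiles of 1 element are not independent.

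Within the Il10 window the labels differed in where their fragments fell. In IL-10+ Treg cells 19.1% of the window's fragments (16.5% to 21.8%, Clopper-Pearson) touched the gene start element in the cecum library and 21.2% (17.2% to 25.5%) in the tumor. For IL-10- Treg cells the shares were 10.1% (6.57% to 14.6%) and 5.31% (3.13% to 8.37%). CD8aa cells, at position 3 of the cecum order with 71.5 FPM, had 0.649% (0.0164% to 3.56%), 1 of 154 fragments, and PD1+ CD4 cells in the tumor 0.360%, 1 of 278. Innate-like T#1 cells had 2.13% and 2.92% at the gene start and 81.7% and 76.9% in the element behind the gene, where IL-10+ Treg cells had 48.5% and 42.3%. The window level was thus made of different elements in different labels.

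**Figure D3:**
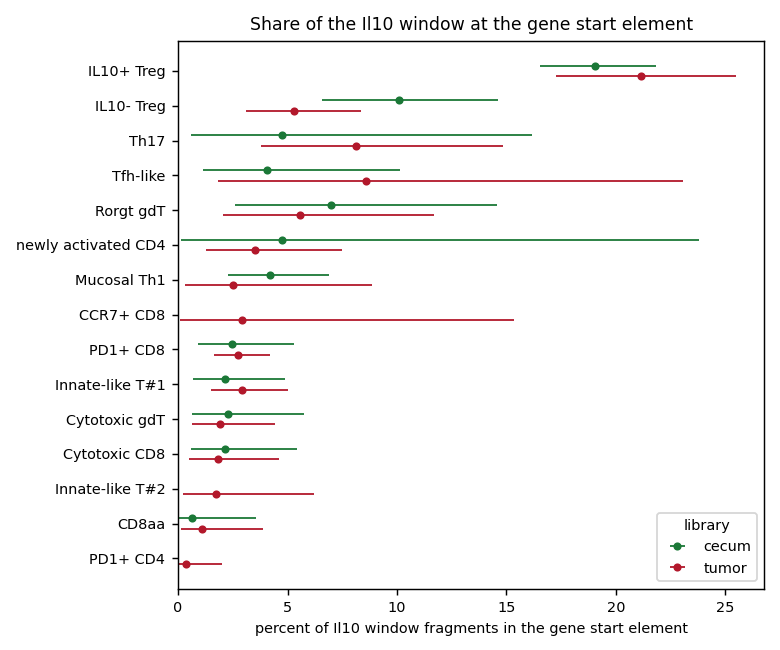
Percent of the fragments of the Il10 window that touch the gene start element (x axis) for labels with at least 20 window fragments (y axis), cecum in green and tumor in red, with exact 95% binomial intervals. IL-10+ Treg cells lie at 19.1% and 21.2%, and the CD8aa points lie at 0.649% and 1.09%.

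Between the Treg subsets, 5 of the 7 genes reached 50 fragments in each library and were set among 14409 genes. Il10 was at least 1.5-fold higher in the IL-10+ subset both times, as were 0.861% of all genes, and none of the 5 was 1.5-fold lower in both, against 4.36% of all genes. The Il10 window ratio was position 89 from the top in the cecum library and 25 in the tumor. It moved with the window. Counted over the gene span alone the log2 ratio was 0.39 in the cecum library, short of 1.5-fold, and 0.96 in the tumor. Within 1 kb of either gene end it was 1.98 and 2.50, where the window itself gave 0.95 and 1.40. Mapkapk2 had 156 against 120 FPM in the cecum (log2 0.38, 0.20 to 0.56) and 142 against 138 in the tumor (0.04, -0.14 to 0.22). The Mapkapk2 window, with 5 kb on either side, also takes in elements outside the gene, at chr1:131049001-131050000 and chr1:131053001-131053500. In the cecum library both were higher in the IL-10+ subset with intervals that excluded 0, and in the tumor both intervals included 0. Their part in the Mapkapk2 difference was not tested.

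By element, the subset difference was widest at the gene start in both libraries among elements with an interval that excluded 0. Of 54 tiles with at least 20 fragments over both subsets in each library, 19 were at least 2-fold higher in the IL-10+ subset both times. Genome-wide 2.2% of 74601 such tiles were. At least 2-fold lower were 0, against 3.22%. Neighbouring tiles of 1 element are counted singly, and a tile can pass the minimum through the IL-10+ subset alone. The subsets are named for the product of this locus. Of the 20 elements, 6 were at least 2-fold higher in the IL-10+ subset in both libraries and 0 were 2-fold lower. The ratio had opposite signs in the libraries at 17 of the 54 tiles, against 37.3% genome-wide. At the gene start element the log2 ratio was 1.87 (1.25 to 2.55) in the cecum library and 3.39 (2.63 to 4.24) in the tumor, and at 27.6 kb before it 1.5 (0.88 to 2.18) and 3.20 (2.40 to 4.08). The elements at 23.3 kb (1.72 and 2.04), behind the gene (1.69 and 1.75), at 20.1 kb (1.22 and 1.05) and 18.9 kb after the start (0.97 and 1.63) were also higher in the IL-10+ subset. At 29.7 kb after the start the ratio was 1.64 (0.74 to 2.66) in the cecum library and 0.32 (-0.55 to 1.16) in the tumor. At the element shared by 11 of 16 labels, 26.1 kb before the start, the ratios were 0.40 (0.11 to 0.70) and 0.23 (-0.07 to 0.54). At the Mapkapk2 end (chr1:131096001-131098000) the levels were 41.5 and 41.3 FPM in the cecum library and 44.0 and 44.1 in the tumor, and the intervals of the log2 ratio reached from -0.31 to 0.33 and from -0.33 to 0.31. Inside the gene, 1.66 kb after the start (chr1:131021001-131022000), IL-10- Treg cells were higher in the cecum, at 28.3 against 19.8 FPM (-0.52, -0.94 to -0.09), while tumor cells had 16.2 and 20.2 FPM (0.32, -0.19 to 0.81). This element was named after its values were seen.

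**Figure D4:**
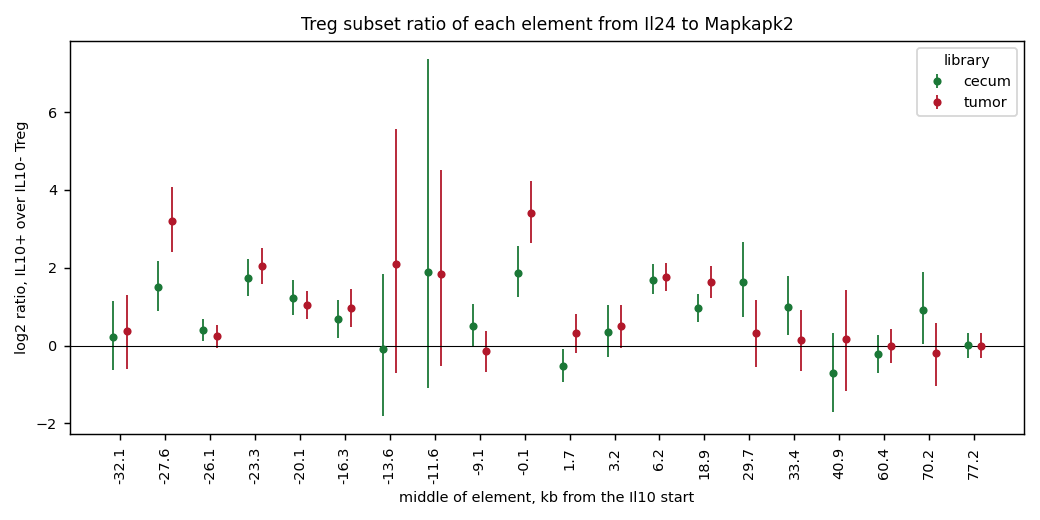
Log2 ratio of IL-10+ to IL-10- Treg levels (y axis) at each of the 20 elements (x axis, kb from the Il10 start to the element's middle) in cecum (green) and tumor (red), with exact 95% conditional intervals; 0 is the black line. The ratio reaches 3.39 at the gene start and 3.20 at 27.6 kb before it in the tumor, and lies at 0.0065 and -0.0035 at the Mapkapk2 end.

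The 3 elements at the gene start and 27.6 kb before and 18.9 kb after it were compared from cecum to tumor. The intervals of IL-10+ Treg cells included 0 there, while IL-10- Treg cells were lower in the tumor at each of them. These 3 were grouped after their values were seen, because the other labels were low there. A low tumor level of IL-10- Treg cells is thus in part set by that choice. At the gene start the log2 ratio of tumor over cecum was 0.07 (-0.32 to 0.46) in IL-10+ Treg cells and -1.45 (-2.44 to -0.49) in IL-10- Treg cells. The IL-10- Treg level went from 8.0 to 2.93 FPM, from 24 fragments in the cecum library and 17 in the tumor. At 27.6 kb before the start the log2 ratios were 0.10 (-0.34 to 0.53) and -1.60 (-2.60 to -0.63). At 18.9 kb after the start they were -0.27 (-0.58 to 0.03) and -0.94 (-1.39 to -0.49). At the gene body element 1.66 kb after the start they were 0.03 and -0.81 (-1.25 to -0.37). The element behind the gene in IL-10+ Treg cells was lower in the tumor, by a log2 ratio of -0.27 (-0.54 to -0.01), and had -0.33 (-0.78 to 0.13) in IL-10- Treg cells. At 29.7 kb after the start IL-10+ Treg cells were lower in the tumor too (-0.76, -1.56 to -0.03), and at chr1:131079501-131081000, within Mapkapk2, higher (0.52, 0.04 to 0.99). At the gene start and at 27.6 kb the tumor IL-10- Treg levels of 2.93 and 2.76 FPM stood beside 1.11 and 2.44 FPM in the low-count barcodes. Of 49 locus tiles with at least 20 fragments in IL-10- Treg cells over both libraries, 4 were at least 2-fold lower in the tumor and 7 higher, against 3.29% and 6.6% of such tiles genome-wide. In IL-10+ Treg cells 5 of 66 were lower and 3 higher, against 4.39% and 3.68%. The difference between the subsets in these ratios was not tested.

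Over the Il10 window as a whole, the interval of the ratio of tumor over cecum included 0 in 12 of 16 labels. Of the genes that reached 50 fragments over both libraries, Il10 was at least 1.5-fold higher in the tumor in Innate-like T#2 cells, at 37.8 against 17.0 FPM (log2 1.16, 0.43 to 1.96), as were 3.17% of genes in that label. CCR7+ CD8 cells, with 47 fragments in all, had 38.3 against 10.2 FPM (1.90, 0.94 to 2.95). In CD8aa cells the tumor level was lower, 52.9 against 71.5 FPM (-0.43, -0.75 to -0.12), and in IL-10- Treg cells 55.1 against 79.3. Of 16 labels 11 had the higher level in the tumor.

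Il19 and Il20 (130932656 to 130945457 and 130906985 to 130911296) had 64 and 48 fragments over all labelled cecum cells and 102 and 60 in the tumor. No ranked label exceeded 3.57 FPM at Il19 or 4.56 FPM at Il20. The unlabelled barcodes with few fragments lay above the labels, at 5.44 and 7.55 FPM for Il19 and 6.21 and 4.89 for Il20. At Il24 (130882074 to 130887411), whose window overlaps its neighbour Fcmr, the levels were 9.28 FPM in IL-10+ Treg, 9.33 in IL-10- Treg and 8.91 in Tfh-like cells of the cecum, and in tumor cells 11, 7.41 and 10.7. The low-count barcodes had 8.28 and 6.88 FPM there, within the intervals of these labels except that of tumor IL-10+ Treg cells (7.42 to 15.7). Innate-like T#1 cells had 2.85 FPM at Il24 in the cecum library and 4.88 in the tumor, past 1.5-fold, as were 1.58% of genes in that label, and within 1 kb of the gene ends the log2 ratio turned to -2.22. Mapkapk2 (131053700 to 131097871), by contrast, was open in all labels, from 92.4 (Tfh-like) to 156 FPM (IL-10+ Treg) in the cecum library and from 96.3 to 142 FPM for the same labels in the tumor.

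The elements of Mapkapk2 differed in their pattern. The element at its end with the promoter shown above (chr1:131096001-131098000) held between 35.2 FPM (Th2) and 57.5 FPM (Innate-like T#2) in the cecum library and between 27.3 (Th2) and 60.4 FPM (CD8aa) in the tumor. The element within the gene at chr1:131079501-131081000 was led by Rorgt gdT cells in the cecum (29.6 FPM) and CCR7+ CD4 cells in the tumor (30.1), the label lowest at Il10, and was lowest in Cytotoxic gdT cells in both (3.66 and 6.20). The element at chr1:131089501-131090500 had its highest level in Innate-like T#2 cells of the cecum (17.0 FPM) and CD8aa cells in the tumor (11.6).

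Il10ra (chromosome 9, 45253837 to 45269149) had its top level in Th2 cells, 125 FPM (97.5 to 157, 71 fragments) in the cecum library and 86.6 FPM (61.3 to 119, 38 fragments) in the tumor. IL-10- Treg cells came second in both, at 85.0 and 70.5 FPM. In the cecum Mucosal Th1 (58.6), IL-10+ Treg (56.9) and PD1+ CD8 cells (55.0) followed, and in the tumor PD1+ CD8 (65.0), PD1+ CD4 (60.2) and newly activated CD4 cells (57.4). The low end was held by Innate-like T#1 (20.2 and 20.9 FPM), Rorgt gdT (25.0 and 17.4), Th17 (25.3 and 21.4) and CD8aa cells (26 and 29.8), near the 26.7 and 27.3 FPM of the low-count barcodes. Only the first 2 neighbouring pairs in the cecum, and none in the tumor, differed beyond counting error. The levels of the 16 labels ranked in both libraries had r = 0.88 of log2(FPM + 1) and rho = 0.89.

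IL-10+ Treg cells had less Il10ra signal than IL-10- Treg cells. The log2 ratio was -0.58 (-0.82 to -0.34) in the cecum, from 325 and 255 fragments, and -0.49 (-0.78 to -0.21) in the tumor, from 137 and 409, short of 1.5-fold in both libraries. Over the span alone the cecum ratio was -1.06, and within 1 kb of the gene ends -0.28. The Il10ra window held 3 elements. The strongest (chr9:45251001-45253000) lies outside the span, overlaps the neighbour BC049352 and was led by Th2 cells at 58.0 and 36.4 FPM. Between the Treg subsets its log2 ratio was -0.26 (-0.62 to 0.11) in the cecum library and -0.42 (-0.86 to 0.01) in the tumor. The element within the gene at chr9:45266001-45266500 was led by Innate-like T#2 cells at 9.43 and 5.97 FPM, with 5.67 and 2.76 in IL-10- Treg and 0.350 and 0.733 FPM (2 fragments each) in IL-10+ Treg cells. The element at the upper end of the gene (chr9:45268001-45269500) had labels between 4.16 and 14.3 FPM in the cecum library and between 3.29 and 16.3 in the tumor. Th2 cells had 8.79 and 4.56 FPM there, from 5 and 2 fragments, against 12.3 and 11.7 FPM in IL-10+ Treg cells, and the Treg log2 ratios were -0.16 (-0.73 to 0.44) and -0.45 (-1.08 to 0.14).

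Il10rb (chromosome 16, 91406157 to 91425834) varied less than Il10 and Il10ra, 2.65-fold between its lowest and highest label in the cecum library and 2.50-fold in the tumor, against 6.18-fold and 4.97-fold for Il10ra. Innate-like T#2 cells had 79.2 FPM (63.2 to 98.0) in the cecum library and 81.9 FPM (72.0 to 92.8) in the tumor, and CCR7+ CD8 cells had 50.4 FPM in the cecum library and 91.2 FPM (72.4 to 113) in the tumor, where they led. Counted within 1 kb of the gene ends, Innate-like T#2 cells took position 9 of the cecum labels. Th2 cells, highest at Il10ra, were lowest at Il10rb in both libraries, at 29.9 and 36.4 FPM from 17 and 16 fragments. No neighbouring pair of labels differed beyond counting error in either library. The CCR7+ CD8 difference of tumor over cecum was 0.86 on the log2 scale (0.37 to 1.35), past 1.5-fold as were 2.64% of genes in that label. Il10ra was past it in newly activated CD4 cells, at 57.4 against 30.5 FPM (0.91, 0.10 to 1.85, from 13 cecum fragments), as were 7.05% of genes there. The window held 2 elements, one over the lower end of Il10rb that also overlaps Ifnar2 (chr16:91405501-91408500), held by 13 of 16 labels at 50% or more of the highest, and one within the gene (chr16:91413001-91414000). The latter was at 33.0 FPM in Innate-like T#2, 23.9 in Tfh-like and 15.5 in Innate-like T#1 cells of the cecum, and at 28.1 FPM in CCR7+ CD8, 22.2 in Innate-like T#2 and 16.1 in Tfh-like cells of the tumor, where the median label had 7.51 and 7.34 FPM.

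**Figure D5:**
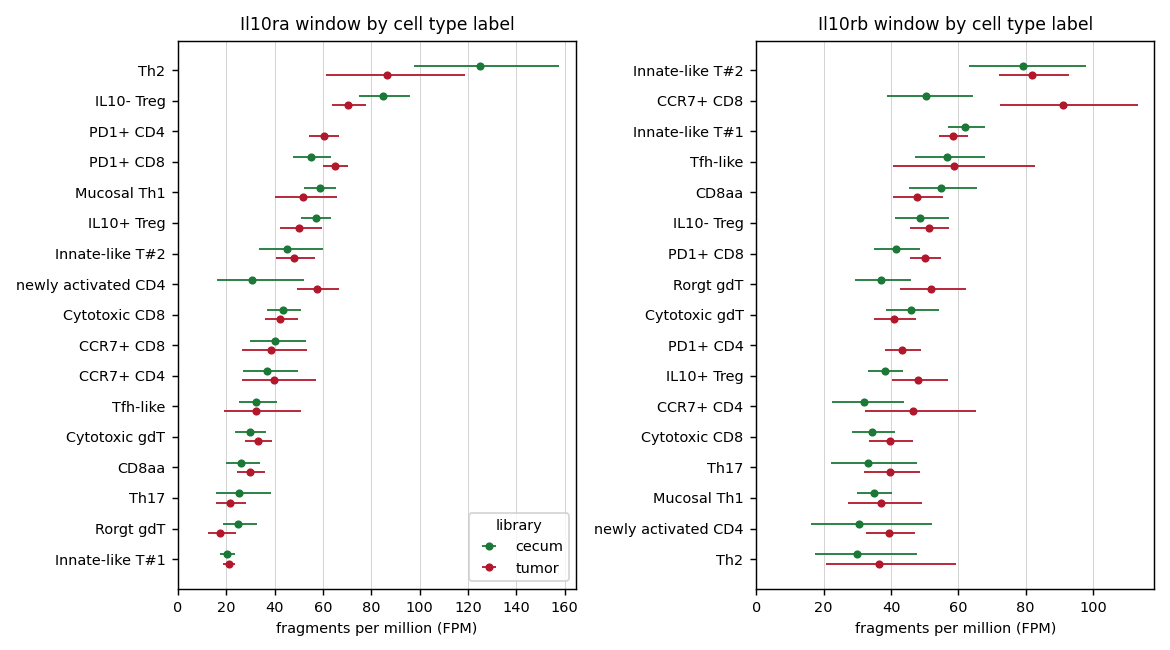
FPM (x axes) in the Il10ra and Il10rb windows of each label (y axes), cecum in green and tumor in red, with exact 95% Poisson intervals. Th2 cells lead Il10ra at 125 and 86.6 FPM and are last at Il10rb at 29.9 and 36.4 FPM.

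Of 41 genes listed for IL-10 ligands, receptors, signalling, factors known to act on Il10 and neighbours of the cluster, 34 were tested between the Treg subsets. Past 1.5-fold in both libraries, 2 were higher in IL-10+ Treg cells, Il10 among them, and 0 were lower, 2 and 0 of 34 beside 0.861% and 4.36% of all genes. The other 32 lay between -0.58 and 0.64 in the cecum library and between -0.93 and 0.56 in tumor cells. The median log2 ratio of the 34 was 0.00 in the cecum library and 0.11 in the tumor, beside 0.01 and 0.01 over all genes. None of the 6 tested receptor genes, 7 signalling genes or 5 neighbours passed in both. Ifnlr1, the lambda interferon receptor chain that pairs with IL-10RB, had log2 values of -0.58 and -0.93 with a pseudocount of 1 FPM. Maf, a factor known to drive Il10, had 0.17 and 0.55, Socs3, a target of STAT3, 0.17 and 0.56, and Stat3 itself -0.02 and -0.05. Il22, a family cytokine, was highest in Th17 cells in both libraries, at 17.2 and 17.5 FPM from 15 and 41 fragments.

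The genes whose levels over 33 label and library points were most like Il10, of 15255 genes compared, were Tead1, Gas2, Stk40, Cyth4, Arnt2, Dcbld2, Prkar1a, Glipr1, Gzmk and Tnfrsf9, with Pearson r of log2(FPM + 1) from 0.81 to 0.83. IL-10+ Treg cells led both libraries at 5 of the 10, for example Gas2 with 220 and 207 FPM, and only the tumor at Tead1, Arnt2 and Dcbld2. Tnfrsf9 was led by IL-10- Treg cells in both, and Gzmk by CD8 labels, with IL-10+ Treg cells at 41.2 FPM below the cecum median of 43.7. At Gzmk in the tumor IL-10+ Treg cells had 50.6 FPM beside a median of 49.95. With Spearman rho 1 of the 10 remained in the list and with labels of at least 100 cells 3, so the list depends on the measure. The genes next to Il10ra in this sense were Gata3 (r = 0.75), which Th2 cells also lead at 353 and 317 FPM, Gbp7, Gm12250, Plgrkt and Commd1, and those next to Il10rb were Spry4, Bace1, Peli2, Akr1d1 and Vgll4. Of the cluster's own genes, Mapkapk2 had r = 0.12 with Il10, Il24 0.20, Il20 0.07 and Il19 0.34. The points share labels and libraries, so r is a description only.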

How the data were processed

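The authors ran Cell Ranger ARC 2.0.0 against mm10, per the file headers. In the deposited ATAC files a line gives 1 fragment, its barcode and its raw read pair counts, and every fragment was used here once whatever its read pairs. Labels came from the authors' clustering of the RNA. The sources used here do not say whether doublets were removed, and none were called here. The RNA libraries were not analysed here. The 7 genes, lists and comparisons were chosen with earlier results of these data known.

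A fragment was counted in a window if either end lay there, on chromosomes 1 to 19, X and Y, and scaled per 1000000 fragments of the label. Spans of genes were those RefSeq lists for GRCm38.p6, the build of mm10, and come without strand or exons, so whether an element lies in an exon or intron is not stated. Ratios over all genes add 1 FPM to either level, so changes of low genes come out too small, and need 50 fragments per library summed over the Treg labels. Where nothing was counted, 3 counts set the upper limit. Labels of at least 50 cells were ranked.

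The named elements are the 10 highest in IL-10+ Treg cells and 5 others led by a label without Treg in its name in both libraries, taken by their highest level. Their order depends on element length, since element levels were not divided by it. Named genes are the 7, listed genes past 1.5-fold in both libraries, and the 10 and 5 most like patterns. Other listed genes (Ifnlr1, Maf, Socs3, Stat3, Il22) were named after their values were seen. Some listed genes, 1 of those past 1.5-fold among them, are counted but not reported by name here. Alternatives were other windows (gene span, 1 kb around either gene end, 20 kb on each side), scaling by fragments near gene ends or by size factors, cells of at least 1000 fragments, cells without those above 3 times the median, means over cells, fragment ends, tile sizes and minimums, opening thresholds, Spearman rho and a pseudocount of 5. Counting was checked on simulated fragments. Intervals came from scipy 1.17.1, counting used numba 0.67.0, tables pandas 2.3.3, arrays numpy 2.4.6 and plots matplotlib 3.10.9, under Python 3.11.15.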

Additional observations from a re-analysis of the deposited data

Results flagged for a closer look

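The subset difference (log2, IL-10+ to IL-10- Treg) had opposite signs in the libraries at Il24 (-0.0075 for cecum, 0.57 for tumor) and at 6 of the 25 elements. These were the element 13.6 kb before the Il10 start (-0.080 and 2.09), the element 9.09 kb before it (0.51 and -0.14), the element 1.66 kb after it (-0.52 and 0.32), the element at chr1:131060501-131061000 (-0.69 and 0.17), the element at chr1:131089501-131090500 (0.91 and -0.20) and the Mapkapk2 end (0.0065 and -0.0035). Of these 6, the cecum interval excluded 0 at 1.66 kb after the start and at chr1:131089501-131090500, and the tumor interval included 0 at all 6 elements. Over tiles of the whole genome 37.3% had opposite signs. The difference was not tested, and each group is 1 library. In barcodes without a label the Il10 window had 33.1 FPM (cecum) and 31.8 FPM (tumor) where fewer than 100 fragments were seen, and 54.2 and 53.4 FPM where at least 1000 were seen, beside 62.2 and 55.4 FPM over all labelled cells.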

How the results depend on the processing

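Of 138 recomputed values of the 18 main results, 122 stayed within the main interval or within 1.5 times the main count. No main ratio whose interval excluded 0 changed its sign. The Il10 subset ratio moved with the window, to 0.39 (cecum) and 0.96 (tumor) over the span, 1.98 and 2.50 at the gene ends, and 1.13 in the tumor with 20 kb on each side. The Il10ra ratio in the cecum was -1.06 over the span and -0.28 at the gene ends. For tumor over cecum Il10 in IL-10+ Treg cells was 0.11 over the span, against -0.076 (-0.25 to 0.097) in the window, so its sign turned. In IL-10- Treg cells it was -0.25 with 20 kb. The number of labels above IL-10- Treg cells at Il10 went from 1 to 2 in the cecum at the gene ends and by means over cells, and from 7 to 2 in the tumor over the span and with 20 kb. With a tile minimum of 40 fragments, 10 tiles rather than 19 were past 2-fold, of fewer tested. Over the span 1 listed gene was higher and 2 (Ifnlr1 among them) lower in both libraries. Il10 itself, at 0.39 in the cecum, fell short of 1.5-fold there. Other turned signs of single genes are listed where the window interval excluded 0. For tumor over cecum at the gene ends these were Il24 in Innate-like T#1 (-2.22) and Mapkapk2 in IL-10- Treg cells (-0.054). Mapkapk2 in Innate-like T#1 (-0.012, and -0.019 by means over cells) and Il10ra in IL-10- Treg cells (0.060) turned too. The cause of these moves was not tested. IL-10+ Treg cells were first at Il10 in both libraries in all 9 alternatives, as were Th2 cells at Il10ra, and at Il10rb CCR7+ CD8 cells went to position 2 in the tumor by means over cells. No paired analysis was possible because each tissue has 1 ATAC library. Labels with few cells limit precision, with 58 tumor Th2 cells and 77 newly activated CD4 cells in the cecum.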
